A study of Mus musculus with 4 samples.

Results

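Lysozymes are enzymes that cut the sugar backbone of the bacterial cell wall. Mice carry a pair of closely related genes for the secreted form. Lyz2 (M lysozyme) is the lysozyme of macrophages and neutrophils, and Lyz1 (P lysozyme) is best known as a granule protein of Paneth cells, the antimicrobial secretory cells at the base of small intestinal crypts. Cutting the wall frees peptidoglycan fragments, which are carried across the endolysosomal membrane and sensed in the cytosol by receptors of the NOD family.

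The transcripts of these 2 genes were followed through all probe sets that carry Lyz1 or Lyz2 as their single gene symbol. These are 2 of the 18193 genes with a probe set of their own symbol, and 4 of the 45101 probe sets on the array, 3 for Lyz1 and 1 for Lyz2. The number of probe sets that name both genes is 0, so none is marked as shared. The genes were chosen for their signal after colitis, so their differences between groups are given as descriptions, without a test.

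The cells were gamma delta intraepithelial lymphocytes, T cells that live within the gut epithelium, sorted from colons of C57BL/6 mice raised under conventional conditions. The DSS group had 2 samples, from mice given 2% DSS (dextran sulfate sodium, which damages the epithelium of the colon) over 5 days, with 3 days of recovery on water alone. The untreated group had 2 samples, from mice of the same strain and housing that received no treatment. Both groups consist of sorted cells whose RNA was amplified before labelling, and each sample was read on 1 array. The labels used here do not give the ages of the animals, the sorting gate, or whether replicates came from separate animals or pools, so the spread between replicates may be technical.

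Both genes lie on chromosome 10 of the mouse genome (RefSeq, GRCm38.p6). Lyz1 spans chr10:117287795-117292868 and Lyz2 spans chr10:117277541-117282272. Both are protein-coding and are read from the minus strand, with Lyz2 downstream of Lyz1 and 5522 bases between them. The 250 bases before each start site are shown because probe sets of both genes had high signals on the same arrays. The pair is also identical next to the start site. Capitals mark bases that differ from the other gene, or have no partner in it, when the regions are aligned. The regions are chr10:117292869-117293118 for Lyz1 and chr10:117282273-117282522 for Lyz2, both on the minus strand and printed 5′ to 3′.
Lyz1: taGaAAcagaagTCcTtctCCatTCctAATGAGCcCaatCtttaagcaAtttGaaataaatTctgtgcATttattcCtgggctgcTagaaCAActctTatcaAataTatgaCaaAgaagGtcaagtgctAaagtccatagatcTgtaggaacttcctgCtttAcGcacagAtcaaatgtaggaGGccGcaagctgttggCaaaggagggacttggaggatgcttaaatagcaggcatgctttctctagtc
Lyz2: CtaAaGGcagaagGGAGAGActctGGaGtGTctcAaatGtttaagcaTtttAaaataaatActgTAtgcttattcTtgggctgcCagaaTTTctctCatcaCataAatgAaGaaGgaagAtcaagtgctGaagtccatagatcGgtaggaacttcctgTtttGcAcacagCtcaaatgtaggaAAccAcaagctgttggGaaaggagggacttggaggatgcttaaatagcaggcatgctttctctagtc

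The upstream regions of Lyz1 and Lyz2 were identical in 205 of 260 alignment columns (78.8%). Identity was 92% in the 100 bases next to the start site and 70.6% in the columns farther upstream. The last 50 bases before the start contain no capital at all. Of the first 50 transcribed bases, 49 were identical between Lyz1 and Lyz2. The upstream region of 9530003J23Rik, the next protein-coding gene on the Lyz2 side, was identical to that of Lyz1 in 49.5% of columns and to that of Lyz2 in 47.5%.

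**Figure D1:**
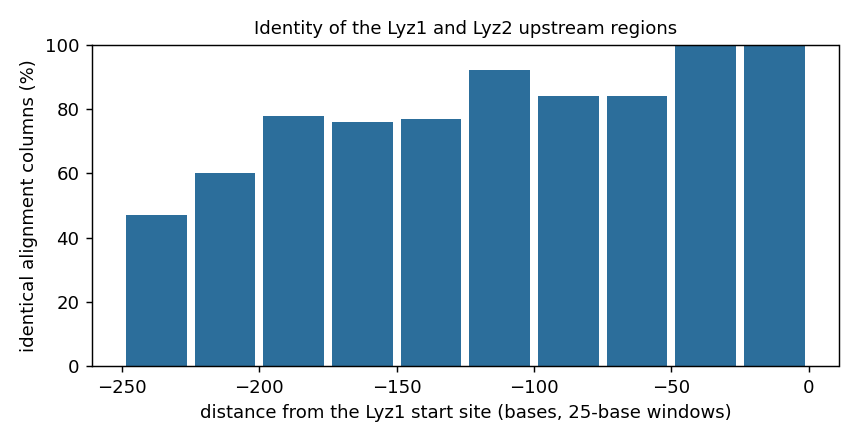
Share of identical alignment columns (%) between the Lyz1 and Lyz2 upstream regions, in windows of 25 bases by distance from the Lyz1 start site. The bars reach 100% in both windows nearest the start and 46.9% in the farthest one.

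Short motifs were looked for on both strands of these 250 bases. GGAA, the core bound by ETS factors such as PU.1, occurs 4 times upstream of Lyz1 and 5 times upstream of Lyz2, and 93.4% of the 32851 promoters in the RefSeq table hold it. The pair at -103 and -98 from the start, which reads ggaacttcc, is present in both genes. TTGCNNAA, a C/EBP-like pattern, occurs 1 time upstream of Lyz1 and 0 times upstream of Lyz2, against 9.56% of all promoters. TTAAATA lies at -28 in both genes and occurs in 4.18% of promoters, while TATAAA is in neither and occurs in 12.4%. These letters are a description of the windows and not evidence that a factor binds.

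The first Lyz1 probe set, 1436996_x_at, had signals of 32381 and 50414 on the DSS arrays, against 1294 and 167 on the untreated arrays. The second, 1439426_x_at, had 25595 and 44629 on the DSS arrays, against 322 and 10.5 on the untreated arrays. On both of these probe sets every DSS array lay far above every untreated array. The lower DSS signal exceeded the higher untreated signal 25-fold on 1436996_x_at and 79.5-fold on 1439426_x_at. On 1436996_x_at the signals exceeded those of 99.6% and 99.8% of probe sets on the DSS arrays, against 89.1% and 43.3% on the untreated arrays.

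The third Lyz1 probe set did not share this pattern. 1450822_at, which the platform table pairs with the RefSeq transcript of Lyz1, had signals of 22.8 and 85.5 on the DSS arrays, against 22.2 and 15.6 on the untreated arrays. All 4 of these values lay below the medians of their arrays, which were 157.1 and 163.3 on the DSS arrays and 193.8 and 213.9 on the untreated arrays. The 3 Lyz1 probe sets therefore disagree, and the large Lyz1 difference rests on the 2 whose names end in _x_at. That ending marks probe sets with probes that can bind other transcripts as well. The probe sequences were not used here, so signal from Lyz1 and from Lyz2 cannot be told apart on these 2 probe sets.

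Lyz2 was read on 1423547_at alone, whose name carries no such ending. Its signals were 6556 and 16791 on the DSS arrays, against 611 and 135 on the untreated arrays. Both DSS arrays were again above both untreated arrays, with the lower DSS signal 10.7-fold over the higher untreated one. The signals exceeded those of 97.5% and 98.9% of probe sets on the DSS arrays, against 78.9% and 38.4% on the untreated arrays. Binding of Lyz1 transcripts to this probe set was not tested.

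**Figure D2:**
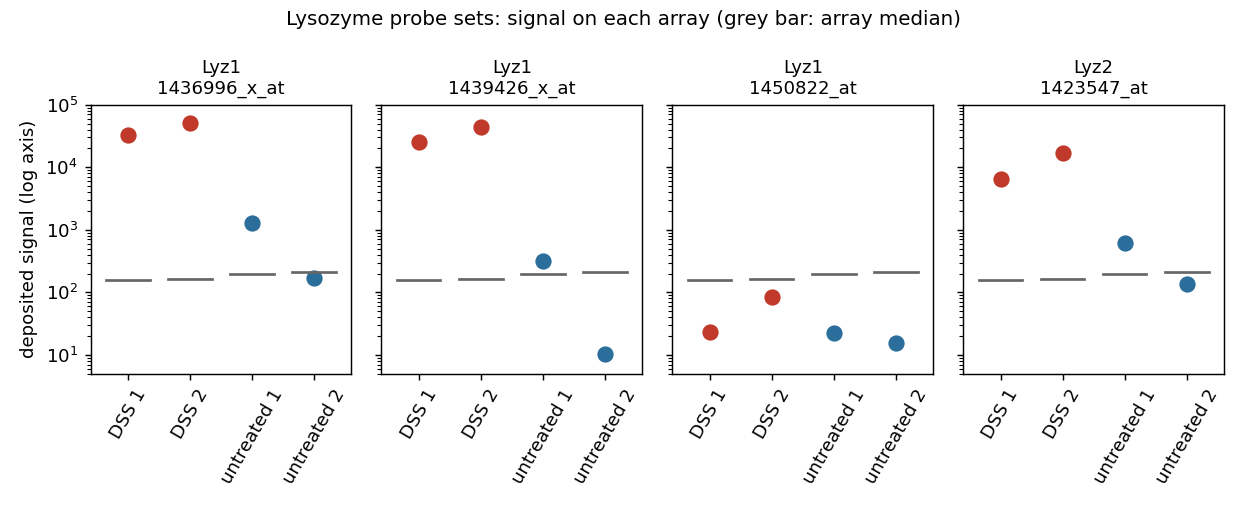
Deposited signal (log axis) of the 4 lysozyme probe sets on the 2 DSS arrays (red, left) and the 2 untreated arrays (blue, right), with grey bars for each array's median. The DSS points lie at 6556 or above on 3 probe sets, and all points of 1450822_at lie below the medians.

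On the log2(signal + 32) scale the DSS minus untreated difference was 6.30 ± 0.82 for 1436996_x_at, 8.11 ± 0.91 for 1439426_x_at and 5.00 ± 0.72 for the Lyz2 probe set 1423547_at (SE from limma, n = 2 per group). For 1450822_at it was 0.66, without an error from the model because that probe set did not pass the filter on dim values. By the size of this difference, Lyz1 on its brightest probe set stood at place 1 and Lyz2 at place 4 of 12424 genes. The brightest probe set sets the Lyz1 place, and 1450822_at would not give it.

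Of the 4 lysozyme probe sets, 4 had both DSS arrays above both untreated arrays, as did 13.6% of all probe sets. For 1450822_at this rests on 22.8 against 22.2, the DSS array and the untreated array nearest to each other. At least 2-fold separation, on the log2(signal + 32) scale, was found for 3 of the 4, and for 1.85% of all probe sets. Both genes showed it on their brightest probe set, as did 271 of the 12424 genes tested (2.18%). The genes were chosen on this contrast, so nothing is read from these counts. Across all genes limma called 0 of 12424 (0%) at an adjusted p of 0.05, and 934 had an unadjusted p under 0.05 (7.52%).

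The arrays of a group also differed from each other for the lysozymes, and that difference did not enter the choice of the genes. Untreated replicate 1 was above untreated replicate 2 on 4 of the 4 probe sets, by 2.73 on 1436996_x_at, 3.06 on 1439426_x_at, 0.19 on 1450822_at and 1.94 on the Lyz2 probe set (log2). Over all 18193 genes measured, replicate 1 was the higher untreated array for 46.2%. That share counts each gene once, on its brightest probe set, while the 4 probe sets belong to 2 genes and are not separate readings. DSS replicate 1 was below DSS replicate 2 on the same 4 probe sets, by log2 differences of -0.64, -0.80, -1.10 and -1.35 in that order. Over all genes, counted in the same way, DSS replicate 2 was the higher DSS array for 51.4%. The untreated group thus set most of the spread on the 3 bright probe sets. On these 3 probe sets untreated replicate 2 was below its array median and untreated replicate 1 above its own.

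Other features of the arrays also follow the groups. The spiked hybridisation controls averaged 14372 and 15271 on the DSS arrays, against 82269 and 59067 on the untreated arrays, over 18 probe sets. Pearson's r over the 12424 genes, which are not independent of each other, was 0.92 between the DSS arrays, 0.79 between the untreated arrays and 0.82 to 0.85 between groups. Treatment and array handling cannot be told apart in these samples. The median log2 difference of all genes tested was -0.07 on the deposited scale, 0.25 with arrays brought to one median and 0.01 with quantile normalization. Beside those shifts, Lyz1 differed by 6.62 and Lyz2 by 5.32 with one median, and Lyz1 by 6.69 and Lyz2 by 5.09 with quantile normalization.

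The other genes on the lysozyme family list did not show the high DSS signals of Lyz1 and Lyz2. The list may not be complete, and 9530003J23Rik, read below by its position, was not on it. The 7 that were measured, through 10 probe sets, had signals from 5.19 to 429, and 8 of the 10 probe sets were below the array median on all 4 arrays. Their median log2 difference was -0.19, beside -0.14 over all genes measured. Of the 7 genes, 0 had both DSS arrays above both untreated arrays on the brightest probe set, against 14.8% of all genes, and 1 had both below, against 25.1%.

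Spaca3, a lysozyme-like protein of the sperm acrosome, was the 1 family gene that passed the filter. It had signals of 215 and 189 on the DSS arrays, against 129 and 429 on the untreated arrays, so its groups overlapped. The gene lower on both DSS arrays was Lyzl6, with 49.2 and 9.97 on the DSS arrays against 77.3 and 124 on the untreated arrays, but its other probe sets gave log2 differences of 0.74 and 0.69. The log2 differences of the remaining family genes were 0.53 for Lyzl4, -0.19 for Lyzl1, -0.35 for Lalba (alpha-lactalbumin, the milk protein of the same fold), -0.10 for Lyg1 and 0.90 for Lyg2. Lyg1 and Lyg2 encode goose-type lysozymes.

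Genes beside the lysozyme pair on chromosome 10, picked by position after the files had been seen, were read as a local comparison. 9530003J23Rik had signals of 126 and 3.70 on the DSS arrays, against 5.32 and 71.7 on the untreated arrays, all below the array medians. Yeats4, a chromatin reader protein, had 1529 and 2018 on the DSS arrays, against 2083 and 963 on the untreated arrays. On the Lyz1 side, the brightest probe set of the pre-mRNA cleavage factor Cpsf6 had 2261 and 1660 on the DSS arrays, against 2920 and 1684 on the untreated arrays. The groups overlapped for all 3 of these probe sets, and the log2 differences were 0.27, 0.30 and -0.19 in that order. The other Cpsf6 probe sets ran from -1.97 to 0.89.

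The gene whose profile over the 4 arrays was most like that of Lyz2 was Tgfbi, an extracellular matrix protein that macrophages also make. Likeness was the root mean square difference between log2(signal + 32) profiles after each gene's mean was removed. Tgfbi differed from Lyz2 by 0.33, with signals of 17899 and 25053 on the DSS arrays against 1551 and 335 on the untreated arrays. Next came the complement chain C1qb at 0.55, the lysosomal protease cathepsin H (Ctsh) at 0.58, the macrophage colony-stimulating factor receptor Csf1r at 0.62, the pore-forming protein Mpeg1 at 0.69 and Rassf4 at 0.70. Rassf4 was read on a probe set that differed by 4.42, while its others gave -2.51 and -0.20. The likeness of Lyz1 to Lyz2 was 0.75, with Pearson's r = 0.99 over the 4 arrays, and these points share the arrays' scaling. Lyz1 was read here on 1436996_x_at, where signal from Lyz1 and from Lyz2 cannot be told apart. These values therefore do not show that the transcripts of both genes changed together.

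For Lyz1 the nearest profile was that of Cxcl2, a neutrophil-attracting chemokine, at 0.61. Cxcl2 had 4348 and 18721 on the DSS arrays, against 443 and 7.49 on the untreated arrays. Lyz2 stood at place 2, followed by Tgfbi at 0.78, Tnfaip2 at 0.90, C1qb at 1.07, Mpeg1 at 1.12 and Ctsh at 1.17. The Tnfaip2 probe sets disagreed, with log2 differences of 5.42, 0.10 and -1.81, and the one used, at 5.42, also ends in _x_at. Tgfbi, C1qb, Ctsh and Mpeg1 were named for both lysozymes. Of these, Tgfbi, C1qb and Ctsh were likewise read on probe sets ending in _x_at. A profile of 4 arrays with a large difference between groups leaves little room to tell genes apart.

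Genes that handle or sense what lysozyme releases were followed as a list of 16, of which 12 were measured. Limma called 0 of the 11 tested, 4 of the 12 had both DSS arrays above both untreated arrays (14.8% of all genes did), 2 had both below (25.1% of all genes), and the median log2 difference was 0.21. The brightest were Pglyrp2, an amidase that cuts peptidoglycan, the oligopeptide transporter Slc15a2, and Nagk, a kinase that phosphorylates a muramyl dipeptide. Pglyrp2 had 1265 and 1064 on the DSS arrays, against 516 and 1922 on the untreated arrays. Slc15a2 had 1351 and 948 on the DSS arrays, against 3518 and 507 on the untreated arrays. For both genes the untreated arrays enclosed the DSS arrays. Nagk had 968 and 1202 on the DSS arrays, against 1259 and 2376 on the untreated arrays, so both DSS arrays were lower.

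The 2 genes of that list with at least 2-fold separation of the groups were the endolysosomal transporters Slc15a3 and Slc15a4, named after their values were seen. Slc15a3 had signals of 836 and 875 on the DSS arrays, against 222 and 24.7 on the untreated arrays, and differed by 2.89 ± 0.75 on the log2 scale (SE, n = 2 per group). Slc15a4 had 955 and 592 on the DSS arrays, against 215 and 91.5 on the untreated arrays, a log2 difference of 2.17 ± 0.55. As with the lysozymes, untreated replicate 2 was the lowest array for both transporters. Neither Slc15a3 nor Slc15a4 passed limma's adjustment. The solute carriers Slc46a2 and Slc46a3, also on the list, had log2 differences of -0.94 and -0.58. Slc46a2 was lower on both DSS arrays but below the median on all 4 arrays, and the groups of Slc46a3 overlapped. The cytosolic sensor Nod1 had a log2 difference of 0.65 with overlapping groups, and the wall lipoprotein receptor Tlr2 one of 0.57 with both DSS arrays higher.

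Transcription factors known to act at the myeloid lysozyme locus had log2 differences of -0.49 (Runx1) to 1.01 (Gabpa). Of 6 measured, limma called 0, 2 had both DSS arrays above both untreated arrays (14.8% of all genes), 1 had both below (25.1% of all genes), and the median log2 difference was 0.15. Irf8 had 2800 and 2324 on the DSS arrays, against 1305 and 2018 on the untreated arrays. Gabpa had 1122 and 930 on the DSS arrays, against 409 and 592 on the untreated arrays, and Irf8 and Gabpa are the 2 with both DSS arrays higher. Cebpb had 545 and 848 on the DSS arrays, against 585 and 753 on the untreated arrays, with the untreated values between the DSS values. Spi1, which encodes PU.1, had 217 and 213 on the DSS arrays, against 450 and 131 on the untreated arrays. Its groups overlapped.

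Markers of macrophages, the cells best known for Lyz2, had higher signals on the same arrays as the lysozymes. Of 22 listed, 20 were measured, and 14 of them had both DSS arrays above both untreated arrays, beside 14.8% of all genes. The groups overlapped for 5 of the 20, beside 10950 of the 18193 genes measured. These were Mertk, Cx3cr1, Vsig4, Cd163 and Itgam, with log2 differences of 0.86, 0.30, -0.002, -0.13 and -0.29. The 1 gene with both DSS arrays below was Tyrobp, an adaptor that natural killer and gamma delta T cells also use, with 18026 and 18428 on the DSS arrays against 18772 and 22951 on the untreated arrays. The median log2 difference was 0.93 over the 20 measured genes. It was 1.79 over the 16 that passed the filter, of which limma called 0. A gene can pass that filter on the DSS arrays alone, as C1qc and Mrc1 did. The choice of genes therefore favours a high value, and nothing is read from the 1.79. The summed signal of the 20 genes was 78016 and 94671 on the DSS arrays, against 29891 and 27640 on the untreated arrays. Tyrobp alone made up 18772 and 22951 of the untreated sums, so these sums are not a level of macrophage RNA. None of the 20 genes was listed at a signal of 0, and 1 of them, the scavenger receptor Cd163, was below the median on all 4 arrays.

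The brightest macrophage markers beside Tyrobp were Csf1r and C1qb. Csf1r had 33267 and 40991 on the DSS arrays, against 4342 and 1162 on the untreated arrays. C1qb had 12782 and 17363 on the DSS arrays, against 1858 and 325 on the untreated arrays. On these brightest probe sets both genes had their lowest signal on untreated replicate 2 and their highest on DSS replicate 2, the order of the lysozymes. The other Csf1r probe sets differed by 2.69 and 1.52 (log2) and were lower on untreated replicate 1. The other C1qb probe sets differed by 3.84 and 3.15, and on 1 of them, 1417063_at, DSS replicate 1 was the higher DSS array. Over the list, untreated replicate 1 was above untreated replicate 2 for 15 of 20 macrophage markers, beside 46.2% of all genes. DSS replicate 2 was above DSS replicate 1 for 14 of 20, beside 51.4% of all genes. The part of macrophages in the lysozyme signal was not tested, and in a sorted bulk sample fewer cells of a type and less RNA per cell cannot be told apart.

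**Figure D3:**
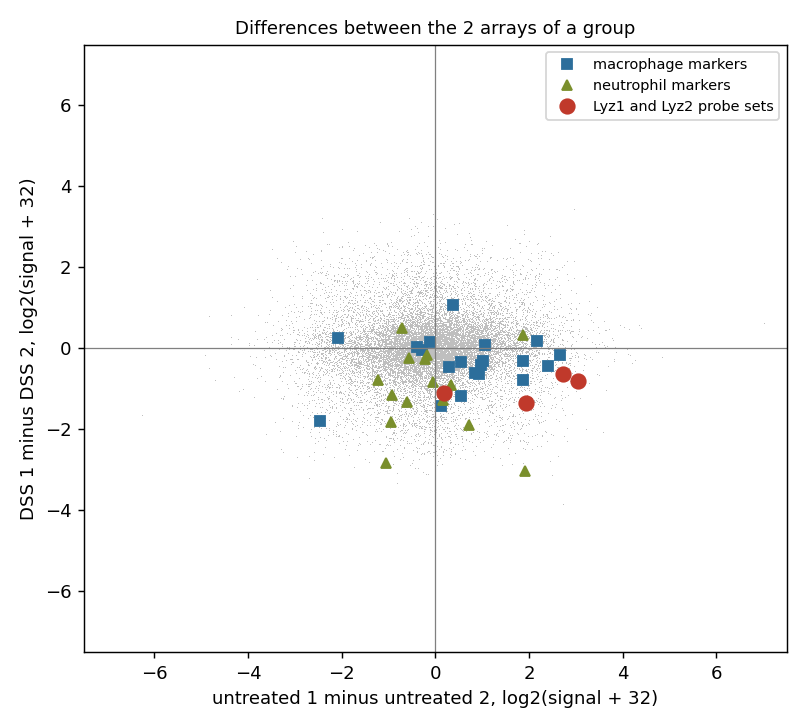
Difference between the 2 DSS arrays (vertical) against the difference between the 2 untreated arrays (horizontal), both in log2(signal + 32), for all measured genes (grey), macrophage markers (squares), neutrophil markers (triangles) and the 4 lysozyme probe sets (circles). The 4 lysozyme points lie in the lower right quadrant, higher on untreated replicate 1 and on DSS replicate 2, where many macrophage markers lie too.

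Markers of neutrophils, which also store Lyz2 in their granules, were read in the same way. Of 15 measured, 1 had both DSS arrays above both untreated arrays (14.8% of all genes) and 4 had both below (25.1% of all genes). The groups overlapped for 10 of the 15, beside 10950 of the 18193 genes measured. The median log2 difference was 0.18, and limma called 0 of 8. The 1 higher gene was the formyl peptide receptor Fpr2, with 780 and 1770 on the DSS arrays against 195 and 399 on the untreated arrays. Ngp, a granule protein, had 326 and 220 on the DSS arrays, against 311 and 534 on the untreated arrays. The growth factor receptor Csf3r had 399 and 309 on the DSS arrays, against 609 and 143 on the untreated arrays, so that both it and Ngp overlapped. The summed signal was 2180 and 4915 on the DSS arrays, against 2538 and 2767 on the untreated arrays. None was listed at 0, and Ctsg, Lcn2, Camp and Cxcr2 were below the median on all 4 arrays. DSS replicate 2 was above DSS replicate 1 for 13 of the 15 genes (51.4% of all genes), the same order as for the lysozymes. Untreated replicate 1 was the higher untreated array for 5 of 15 (46.2% of all genes). The DSS order was not particular to these lists. It was found for 5 of 5 B cell markers and 12 of 18 gamma delta lymphocyte markers, but only 5 of 13 epithelial markers. Their part in the lysozyme signal was not tested.

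Paneth cell markers, the usual company of Lyz1 in the small intestine, had signals of at most 597 on the brightest probe set of each gene. Of 14 listed, 8 were measured, and 0 had both DSS arrays above both untreated arrays (14.8% of all genes), while 3 had both below (25.1% of all genes) and the median log2 difference was -0.72. The brightest were Pla2g2a, a secreted phospholipase, the protease Mmp7 and the secretory cell peptide Spink4. Pla2g2a had 166 and 205 on the DSS arrays, against 302 and 597 on the untreated arrays. Mmp7 had 22.3 and 479 on the DSS arrays, against 48.2 and 491 on the untreated arrays, so the groups overlapped. Spink4 had 90.6 and 297 on the DSS arrays, against 555 and 240 on the untreated arrays, and overlapped too. The summed signal of the 8 genes was 782 and 1130 on the DSS arrays, against 1783 and 1702 on the untreated arrays. None was listed at 0, Itln1 was below the median on all 4 arrays, and limma called 0 of the 4 tested. Pla2g2a is known to carry an inactivating mutation in C57BL/6 mice, and most of the listed defensin genes were not read under a symbol of their own.

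**Figure D4:**
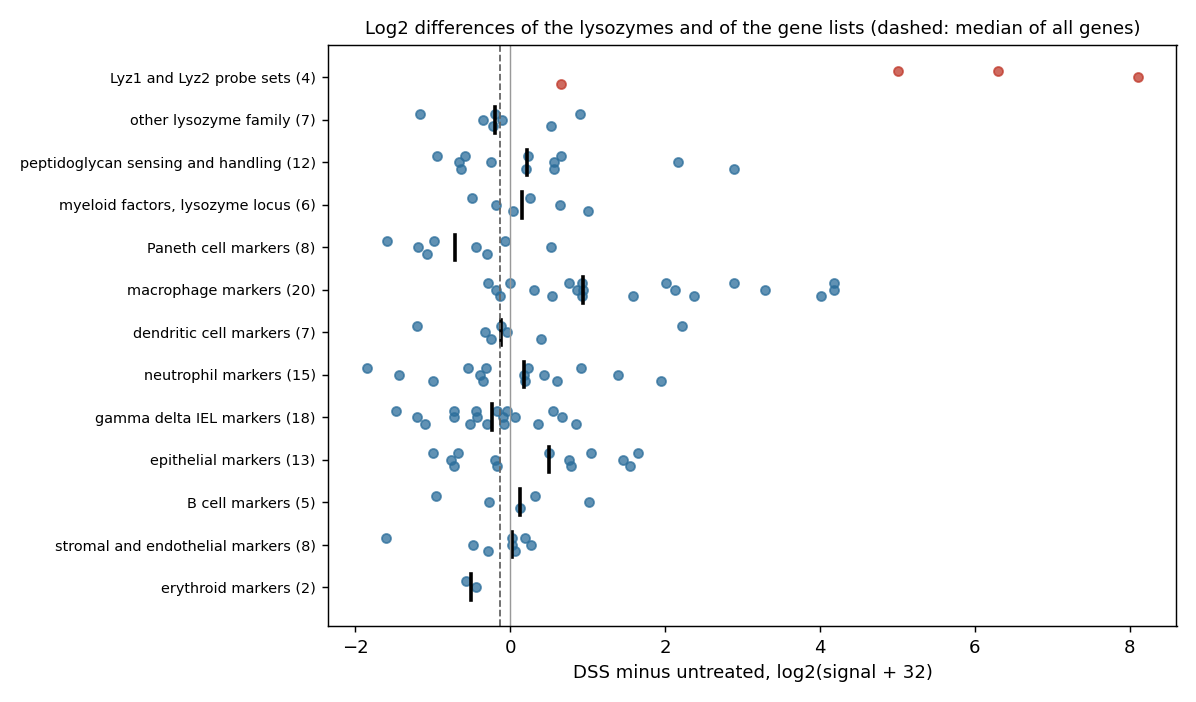
DSS minus untreated difference in log2(signal + 32) for the 4 lysozyme probe sets (red) and the brightest probe set of each measured list gene (blue), with a black bar for each list's median and a dashed line for the median of all genes (-0.14). Of the lysozyme probe sets, 3 lie at 5.00 to 8.11 and 1 at 0.66, and the macrophage markers have the highest list median, 0.93.

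Markers of the sorted population were measured in both groups, and 0 of them lay below the median on all 4 arrays. Of 18 gamma delta intraepithelial lymphocyte markers measured, 4 had both DSS arrays above both untreated arrays (14.8% of all genes) and 6 had both below (25.1% of all genes), with a median log2 difference of -0.24, and 0 were called by limma. Itgae (CD103), the integrin that holds these cells in the epithelium, had 43558 and 43518 on the DSS arrays, against 101512 and 98460 on the untreated arrays. The chemokine Ccl5 had 55885 and 65842 on the DSS arrays, against 166892 and 171899 on the untreated arrays, and granzyme Gzma had 71928 and 75419 on the DSS arrays, against 187735 and 53264 on the untreated arrays. Itgae and Ccl5 were lower on both DSS arrays, and Gzma overlapped. The 4 markers higher on both DSS arrays were Cd3d, Cd3g, Cd69 and Xcl1, with log2 differences of 0.67, 0.36, 0.85 and 0.56. The summed signal of the 18 genes was 392444 and 423207 on the DSS arrays, against 693635 and 693119 on the untreated arrays. Gzma, Ccl5 and Itgae, the brightest of the list, weigh most in these sums. Trdc and Trgc1, the constant regions of the gamma delta receptor, were not read under those symbols, and other T cells also express most of the listed genes.

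Lists of other cells that colon tissue holds were read in the same way, and limma called 0 of their genes. The median log2 difference was 0.50 over 13 epithelial markers, 0.13 over 5 B cell markers, 0.02 over 8 stromal and endothelial markers, -0.13 over 7 dendritic cell markers and -0.51 over 2 erythroid markers. Both DSS arrays were above both untreated arrays for 3 epithelial markers (Krt8, Car1 and Vil1) and for 1 dendritic cell marker (Batf3), and for 0 in the other 3 lists, beside 14.8% of all genes. Both DSS arrays were below both untreated arrays for 2 epithelial markers (Krt18 and Tff3), 1 dendritic cell marker (Zbtb46) and 1 stromal marker (Pdgfra), beside 25.1% of all genes. For Zbtb46 this rests on 242.5 on DSS replicate 1 against 243.1 on untreated replicate 2. Pdgfra was below the median on all 4 arrays. The summed epithelial signal was 15085 and 13172 on the DSS arrays, against 12543 and 9956 on the untreated arrays, and that of dendritic cells was 2722 and 2573 on the DSS arrays, against 2411 and 3225 on the untreated arrays. The brightest epithelial marker, the adhesion protein Cdh1, had 5947 and 4191 on the DSS arrays, against 5145 and 1675 on the untreated arrays, and overlapped. Krt8, a keratin of simple epithelium, had 2878 and 2753 on the DSS arrays, against 1353 and 1950 on the untreated arrays. Its partner keratin Krt18 had 414 and 310 on the DSS arrays, against 564 and 666 on the untreated arrays, so these keratins differed in opposite directions. The summed B cell signal was 1386 and 2581 on the DSS arrays, against 1189 and 2937 on the untreated arrays, and the stromal and endothelial one was 1193 and 1787 on the DSS arrays, against 1617 and 1584 on the untreated arrays. Both overlapped between the groups.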

How the data were processed

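The authors deposited an intensity on a linear scale for every probe set and array. GCOS made these signals, according to the submitters' processing notes. The sources used here do not give its version or settings. Each array's mean was 500.0 after the lowest and highest 2% of probe sets were dropped. The platform table gave 1 gene symbol to 34958 probe sets, several to 932 and none to 9211, and 34754 of the first matched a RefSeq gene by number. The 64 control probe sets were left out.

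Signals were analysed as log2(signal + 32), which understates changes of dim genes. Probe sets above the array median on at least 2 arrays were kept, and the brightest kept probe set stood for each of 12424 genes. Counts over all genes measured used no filter. Groups were compared in R 4.3.3 with limma 3.58.1 (intensity trend, group as the only term, Benjamini-Hochberg adjustment), and errors of single probe sets came from the same fit over all 24483 kept probe sets. The limma step was tested on simulated data. Promoters from RefSeq (GRCm38.p6) were aligned globally with Biopython 1.88.

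The lysozymes and the gene lists were chosen with earlier results of these data known. The genes named are the lysozyme family list, the 6 nearest profiles of each lysozyme and up to the 3 brightest genes of each other list. Other genes were named after their values were seen: Slc15a3, Slc15a4, Nod1, Tlr2, Spi1, Runx1, Batf3, Zbtb46, Pdgfra, Vil1, Krt18, Tff3, Cd163, Itln1, Ctsg, Lcn2, Camp, Cxcr2 and the chromosome 10 neighbours. So were Slc46a2, Slc46a3, C1qc, Mrc1, Mertk, Cx3cr1, Vsig4, Itgam, Cd3d, Cd3g, Cd69 and Xcl1. The brightest dendritic cell, B cell, stromal and erythroid genes are given only through their lists. Alternatives covered pseudocount, scaling, filter, probe set choice, variance trend, leaving out each array and the replicate block. The number of arrays limits the precision.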

Additional observations from a re-analysis of the deposited data

How the results depend on the processing

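Lyz1 and Lyz2 were higher in DSS samples under every alternative run for them, 10 each. The genes were chosen on this contrast and their groups lie far apart, so the direction could hardly have changed. Nothing is read from it, and no alternative took in 1450822_at, the Lyz1 probe set with a difference of 0.66. Leaving out 1 array gave 4.93 to 7.66 for Lyz1 and 4.03 to 5.97 for Lyz2 (log2), lowest without untreated replicate 2 and highest without untreated replicate 1. The mean of the kept Lyz1 probe sets gave 7.20. The limma count of 0 genes became 3 with probe sets averaged, and 1791 without untreated replicate 1 and 755 without untreated replicate 2, so leaving out 1 array gave 0 to 1791. These fits take the spread of a lone array from the 2 arrays of the other group, and with an untreated array left out that is the spread of the DSS arrays alone. With 2 arrays per group, such fits show nothing about stability. A fit with a replicate block called 67 genes. The numbers were not taken as pairing, since the replicate differences of the groups correlated at 0.05 over genes. With each replicate number present once in each group, the block could not move the lysozyme differences of 6.30 and 5.00. Genes at least 2-fold higher on both DSS arrays numbered 271, 476 after common-median scaling, and 367 to 1336 with 1 array left out. The macrophage median of 1.79 is over genes that could pass the filter on the DSS arrays alone. It was 0.93 without the filter, which adds dim genes, and 1.31 to 2.12 with the filter and 1 array left out.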
